A study of Rattus norvegicus with 9 samples.

Results

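The genes described here are the G protein-coupled receptors, the G protein subunits, the RGS proteins that regulate them, and the adenylyl cyclases and phosphodiesterases that make and break their second messengers, in rat heart after LAD ligation. They were taken by gene symbol alone, from patterns for receptor families (Gpr, Adgr, Adra, Adrb, Adora, Ptger, Ptgir, S1pr, Lpar, P2ry, Ednr, Agtr, Bdkrb, Calcrl, Ramp, Aplnr, F2r, the melanocortin and serotonin receptors), Rgs, Gna, Gnb, Gng, Adcy and Pde. The patterns matched 98 of the 5760 genes listed in 2 tables of cardiac RNA-seq. Of these, 74 were among the 4288 genes of the table on Cal treatment (Cal and model groups, the treatment table), 49 were among the 2458 genes of the table on the disease model (model and sham groups, the sham table), and 25 were in both. The patterns also took in Rgs7bp, which encodes a binding partner of an RGS protein, Adcyap1r1, which encodes a peptide receptor and not a cyclase, and Gpr137b-ps, a transcribed relative of Gpr137b.

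A G protein-coupled receptor spans the membrane and, on binding its ligand, loads GTP onto the alpha subunit of a G protein, which then parts from the paired beta and gamma subunits. Stimulatory alpha subunits switch on adenylyl cyclase and raise cAMP, inhibitory ones lower it, and the Gq family activates phospholipase C and calcium release. RGS proteins hasten GTP hydrolysis and so end the signal, and phosphodiesterases degrade cAMP and cGMP. In the heart this machinery sets rate and force of contraction through adrenergic receptors and vessel tone through angiotensin, adrenomedullin and apelin receptors, and it guides the entry of leukocytes.

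The study compared hearts of male Sprague Dawley rats in 3 groups of 3 animals. The sham group, which GEO's labels call Control and the column headings Con, had surgery without ligation and received distilled water by mouth. In the model group HF was induced by ligating the left anterior descending coronary artery, and distilled water was given in the same way. The Cal group had the same ligation and then calycosin (Cal), an isoflavone of Astragalus, by mouth at 80 mg/kg per day, starting 24 h after surgery and going on for 28 days. The sequenced animals were drawn at random from larger groups, and total cardiac RNA was used, so every value is a mean over all the cell types of the piece of heart.

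The headings of the deposited columns conflict, and libraries are therefore named here by the heading of their sample column. For the treatment table, averaging the 3 libraries headed Cal gives the authors' mean column headed Model, and averaging the 3 headed Model gives the one headed Cal. The sham table likewise has its libraries headed Cal averaged under Model, and those headed Con under Con. Wherever a gene is called higher or lower in the libraries headed Cal, the authors' mean columns thus give that same level to the model group, and which name holds was not tested.

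Only genes that passed the authors' own test are listed, so a receptor that is missing from a table was not analysed there, and the tests below repeat a test on genes already selected. The values, here called normalized counts, are read counts over a size factor of the library, and 1 read was worth 0.854 to 1.22 of them. Reads on listed genes ran from 2860826 to 3998471 per library in the treatment table and from 3270460 to 4659882 in the other, and the total depth of a library is unknown. Of 10 cardiomyocyte markers Nppa was analysed in the first table and Myh6 and Ryr2 in the second, where Myh6, the alpha myosin heavy chain of cardiomyocytes, averaged 275029 in the libraries headed Con and 335145 in those headed Cal. T and B lymphocyte markers were not analysed here.

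Most of these signalling genes were at a higher level in the treatment table's libraries headed Cal (averaged under Model). Of the 74 members, 50 were higher and 24 lower at an adjusted p under 0.05, where 99.6% of all listed genes passed that limit, 46.0% higher and 53.7% lower. A call, which also needed a change of more than 1 on the log2 scale, was made for 45 members or 60.8%, against 60.1% of all listed genes. Calls were split into 25 higher and 20 lower, that is 33.8% and 27.0% of the members, against 28.4% and 31.6% of all listed genes. The median log2 fold change of the members was 0.78 and that of all listed genes -0.52. The 2 groups of libraries did not overlap for 72 members, against 98.2% of all genes, the exceptions being Adgrv1 and Gpr34. All tests across genes are limma tests on log2(normalized count + 1), with 3 libraries in each group and adjusted p-values over the whole table, and the members' adjusted p ran from 0.000133 to 0.0266.

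**Figure D1:**
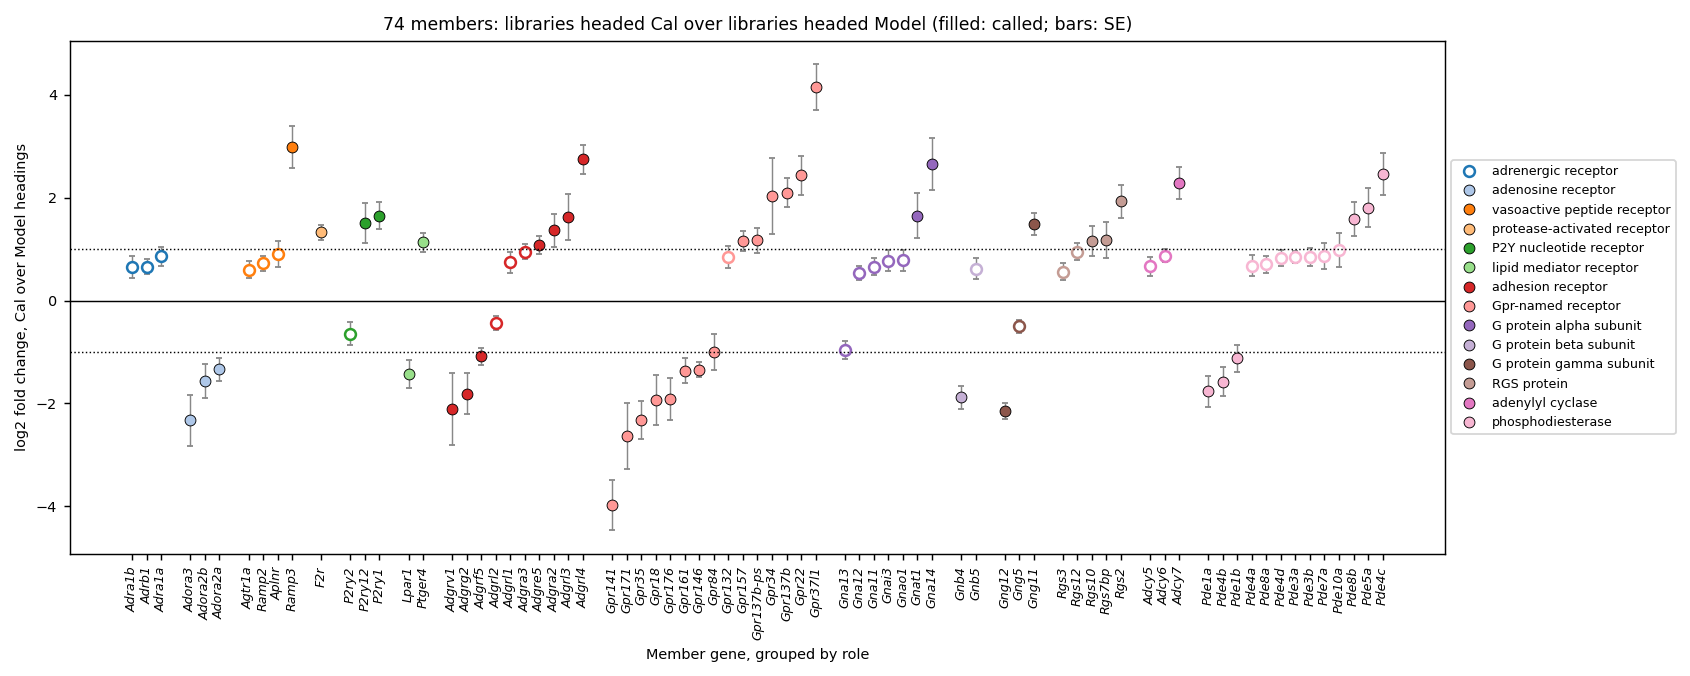
Log2 fold change of each of the 74 members in the treatment table, libraries headed Cal (averaged by the authors under Model) over libraries headed Model (averaged under Cal), with SE bars and n = 3 per group. Genes are grouped by role, filled points are calls, open points lie within the dotted lines at a change of 1, and values run from -3.99 for Gpr141 to 4.15 for Gpr37l1.

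Against sham the members were split more evenly, with somewhat more of them lower. Of the 49 members in the sham table, 22 or 44.9% were higher in the libraries headed Cal (averaged under Model) than those headed Con. The other 27 or 55.1% were lower, all at an adjusted p under 0.05. Of all listed genes 99.8% passed that limit, 60.6% higher and 39.2% lower. A call was made for 20 members or 40.8%, against 29.0% of all listed genes. Of these, 11 were higher and 9 lower, or 22.4% and 18.4% of the members, against 18.0% and 10.9% of all genes. The members' median log2 fold change was -0.52, while that of all listed genes was 0.37. Groups did not overlap for 46 members, against 97.4% of all genes, with Ramp3, Gpr4 and S1pr1 overlapping. The members' adjusted p ran from 1.37e-06 to 0.0228. Both comparisons use the same libraries headed Cal, so they are not independent of each other.

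The scale of each table is the authors'. Quantile normalization over the listed genes moved the median of all of them from -0.52 to -0.10 for the treatment table, and for the sham table from 0.37 to -0.044, and median-ratio scaling moved it to -0.23 and 0.090. Under these scalings the members' calls were 30 higher and 18 lower, and 40 higher and 17 lower, in the treatment table. For the sham table the split was 6 higher and 16 lower, and 8 higher and 19 lower. Changes of the second table that lost the adjusted p limit under either scaling are therefore named below with the adjusted p of that scaling. Calls below are on the authors' scale unless a scaling is named. Quantile normalization and median-ratio scaling also added calls, 8 and 15 in the treatment table and 7 and 10 in the sham table. Most of these added calls are not named.

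**Figure D2:**
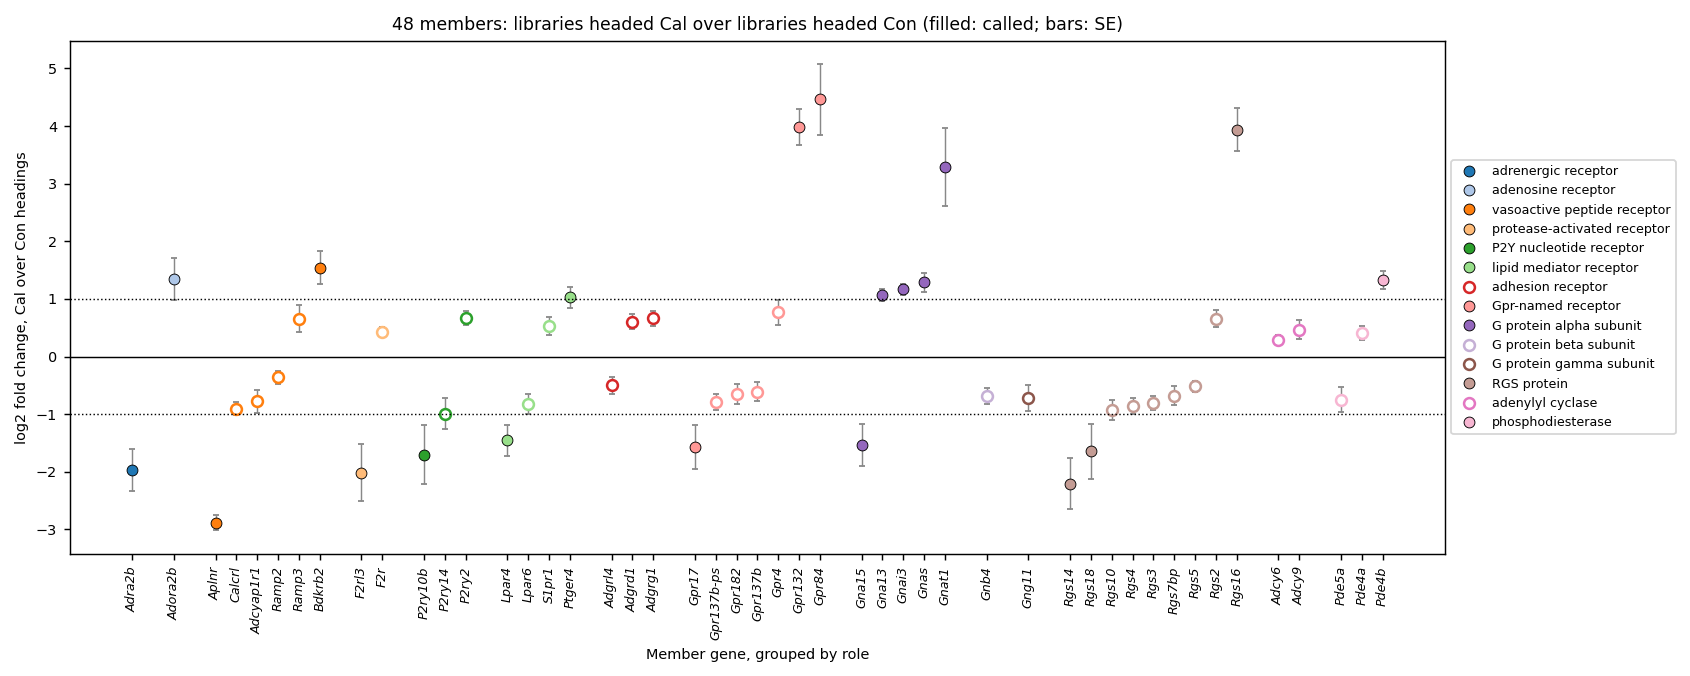
Log2 fold change of 48 of the 49 members in the sham table, libraries headed Cal (averaged by the authors under Model) over libraries headed Con, with SE bars and n = 3 per group. Genes are grouped by role, filled points are calls, open points lie within the dotted lines at a change of 1, and values run from -2.88 for Aplnr to 4.46 for Gpr84.

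The adrenergic receptors, which carry the signal of noradrenaline to the heart, differed little in the treatment table, and Adra2b differed more against sham. The treatment table listed 3, each higher in the libraries headed Cal (averaged under Model) under the authors' and both other scalings. Among all listed genes 46.0% were higher at the adjusted p limit on the authors' scale. None was called on the authors' scale, while Adra1a met the limits of a call under median-ratio scaling (1.15, adjusted p = 0.00136). Adrb1, the main beta receptor of cardiomyocytes, had normalized counts of 181, 176 and 174 in the libraries headed Model and 305, 277 and 260.5 in those headed Cal. All 3 libraries headed Cal lay above all 3 headed Model, which were within a few counts of each other, and the log2 fold change was 0.66 ± 0.15. Adra1a, a Gq-coupled alpha receptor, had normalized counts of 218, 155 and 189 in the libraries headed Model and 306, 373 and 335 in those headed Cal, again without overlap, a difference of 0.86 ± 0.18. The related Adra1b had normalized counts of 316, 346 and 539.6 in the libraries headed Model and 636, 590.4 and 611 in those headed Cal. Here Model library 3 came close to the Cal range, the log2 fold change was 0.65 ± 0.21 (adjusted p = 0.0183), and it lost the limit without Model replicate 1, Model replicate 2 or Cal replicate 1, with adjusted p up to 0.0594.

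Against sham Adra2b was called lower in the libraries headed Cal (averaged under Model), and it was lower under both other scalings too. This inhibitory receptor had normalized counts of 26.1, 20.6 and 32.4 in the libraries headed Con and 7.22, 4.21 and 6.67 in those headed Cal. Every Con library was above 20 and every Cal library below 8, with a log2 fold change of -1.97 ± 0.36 (adjusted p = 0.00197). In bulk RNA fewer cells of a type and less RNA per cell cannot be told apart, here or for any gene below.

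All 3 adenosine receptors listed in the treatment table were lower in the libraries headed Cal (averaged under Model), and all 3 were called, under the other scalings as well. Of all listed genes 60.1% were called on the authors' scale, and 31.6% were called lower. These receptors sense adenosine released by stressed tissue, Adora2a and Adora2b through stimulatory and Adora3 through inhibitory G proteins. Adora2a had normalized counts of 260.3, 393 and 427 in the libraries headed Model and 125, 155 and 137 in those headed Cal. The lowest Model library was above the highest Cal library, and the log2 fold change was -1.34 ± 0.22 (adjusted p = 0.00156). Adora3 was scarce, with normalized counts of 16.2, 20.7 and 18.2 in the libraries headed Model and 5.53, 0.939 and 3.42 in those headed Cal, and again the groups lay apart, at -2.33 ± 0.50 (adjusted p = 0.00382). Adora2b, listed in both tables, had normalized counts of 15.8, 27.2 and 19.9 in the libraries headed Con, 141, 171 and 172 in those headed Model and 35.1, 87.3 and 49.5 in those headed Cal. Values of libraries headed Con in such sentences are multiplied by 0.894, the factor that brings the shared Cal libraries of both tables to 1 scale, and are not tested across tables. The Cal libraries of Adora2b stood between the others with no overlap on either side, -1.57 ± 0.33 against Model and 1.34 ± 0.37 against Con, and the latter was below the fold limit without Cal replicate 2, at 0.99.

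The receptors for vasoactive peptides included Aplnr, which had the lowest log2 fold change of all members against sham. Aplnr (ENSMUSG00000044338), the apelin receptor of endothelial and muscle cells, had normalized counts of 1299, 1123 and 1268 in the libraries headed Con, 118, 82.9 and 69.97 in those headed Model and 197, 147 and 157 in those headed Cal. All Con libraries were above 1100 and every other library was below 200. The Con to Cal difference was -2.88 ± 0.13 (adjusted p = 1.37e-06), the lowest adjusted p of any member. Cal libraries in turn lay above all Model libraries, by 0.91 ± 0.25 (adjusted p = 0.00945), which is under the fold limit. Its ligand gene Apln was called higher in the libraries headed Cal than in those headed Model, with means of 336 and 148 and a log2 fold change of 1.19 ± 0.21.

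Ramp2 and Ramp3 encode small membrane proteins that join the receptor Calcrl to form receptors for adrenomedullin, a vasodilator peptide. Ramp3 had normalized counts of 79.2, 126 and 105 in the libraries headed Con, 34.6, 18.3 and 11.5 in those headed Model and 123, 198 and 173 in those headed Cal. Model libraries were far below all others, whereas Con and Cal ranges overlapped. The differences were 2.99 ± 0.40 against Model (adjusted p = 0.000740) and 0.66 ± 0.24 against Con (adjusted p = 0.0228), and the latter missed the limit under quantile normalization (adjusted p = 0.0617), under median-ratio scaling (adjusted p = 0.192) and without Con replicate 1, Cal replicate 2 or Cal replicate 3 (adjusted p up to 0.0832). Ramp2 had normalized counts of 566, 655 and 637 in the libraries headed Con, 317, 263 and 295 in those headed Model and 461, 447 and 539.7 in those headed Cal, in the order Con, Cal, Model with no overlap between neighbours, 0.72 ± 0.15 against Model and -0.36 ± 0.11 against Con. Neither difference of Ramp2 was called, since both were under the fold limit. Calcrl was listed against sham only, with normalized counts of 615, 690.5 and 678 in the libraries headed Con and 402, 338 and 324 in those headed Cal and a difference of -0.90 ± 0.12 without overlap (adjusted p = 0.000419). Adm, the adrenomedullin gene, averaged 598 in the libraries headed Model and 216 in those headed Cal (-1.45 ± 0.19), a call in the lower direction and opposite to both RAMP genes. Against sham, Adm was higher in Cal-headed libraries, at means of 158 headed Con and 242 headed Cal (0.61 ± 0.15, not called), the same direction as Ramp3 and opposite to Ramp2 and Calcrl.

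Of the other peptide receptors, Agtr1a, the angiotensin receptor that constricts vessels, had normalized counts of 231, 284 and 286 in the libraries headed Model and 437, 348 and 432 in those headed Cal. All Cal libraries exceeded all Model libraries, by 0.60 ± 0.17 (adjusted p = 0.0103), under the fold limit. Bdkrb2, the bradykinin receptor, had normalized counts of 11.2, 13.8 and 12.1 in the libraries headed Con and 39.2, 45.3 and 30.5 in those headed Cal, with the groups apart at 1.54 ± 0.28 (adjusted p = 0.00192), a call. Adcyap1r1, the receptor of the peptide PACAP, was lower in the libraries headed Cal (averaged under Model) than in those headed Con (-0.78 ± 0.20). Endothelin receptors were not analysed here, while the ligand gene Edn1 was, with means of 289.8 headed Model and 47.3 headed Cal (-2.56 ± 0.22, called), and of 87.3 headed Con and 52.9 headed Cal in the other table (-0.70 ± 0.18, not called).

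Both listed thrombin receptors were protease-activated receptors, which a protease opens by cutting off part of the receptor itself. F2r had normalized counts of 817, 832 and 722 in the libraries headed Con, 483, 384 and 404 in those headed Model and 1038, 1056 and 1081 in those headed Cal. Within each group the libraries were tight, no neighbouring groups overlapped, and Cal was highest and Model lowest. The difference from Model was 1.33 ± 0.14 (adjusted p = 0.000306), a call, and that from Con was 0.42 ± 0.090, which lost the limit under quantile normalization (adjusted p = 0.900) and median-ratio scaling (adjusted p = 0.198). F2rl3 was scarce, with normalized counts of 37.3, 13.8 and 18.2 in the libraries headed Con and 3.09, 7.37 and 3.81 in those headed Cal, a call of -2.01 ± 0.49 (adjusted p = 0.00566) in the lower direction for the libraries headed Cal.

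Among the receptors for extracellular nucleotides, P2ry1 and P2ry12 respond to ADP and P2ry2 to ATP and UTP. P2ry1 had normalized counts of 121, 102 and 63.3 in the libraries headed Model and 312, 328 and 244 in those headed Cal, with all Cal libraries more than 100 above all Model libraries and a difference of 1.65 ± 0.27 (adjusted p = 0.00146). P2ry12 was called higher in the same libraries, by 1.51 ± 0.39. P2ry2 had normalized counts of 533, 471 and 439.9 in the libraries headed Con, 996, 1034 and 1674 in those headed Model and 701, 877 and 732 in those headed Cal. Its order was Model, Cal, Con from high to low, without overlap, and neither step was called, -0.65 ± 0.22 for Cal over Model and 0.67 ± 0.12 for Cal over Con. The first lost the adjusted p limit under both other scalings (adjusted p = 0.355 and 0.198) and without Cal replicate 1 or Cal replicate 3 (adjusted p up to 0.0720), and the second under quantile normalization (adjusted p = 0.0554). P2ry10b had normalized counts of 27.02, 32.4 and 29.4 in the libraries headed Con and 19.6, 7.37 and 3.81 in those headed Cal, lower under the heading Cal at -1.70 ± 0.51 (adjusted p = 0.0119), and P2ry14, a receptor for UDP sugars, was lower there too at -0.99 ± 0.27, just inside the fold limit.

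Receptors for lipid mediators went in both directions. Ptger4, a stimulatory receptor for prostaglandin E, had normalized counts of 80.8, 106 and 71.5 in the libraries headed Con, 82.1, 89.02 and 67.1 in those headed Model and 172, 166 and 184 in those headed Cal. Libraries headed Cal were above all others, while the Con and Model ranges overlapped, and the differences were 1.13 ± 0.19 from Model (adjusted p = 0.00156) and 1.02 ± 0.18 from Con (adjusted p = 0.00158). The second sits at the fold limit and was within it under both other scalings (0.88 and 0.74) and without Con replicate 1 (0.99), Con replicate 3 (0.90) or Cal replicate 3 (0.99). Of the genes that make its ligand, Ptgs2, the inducible cyclooxygenase, averaged 31.8 in the libraries headed Con and 1119 in those headed Cal (5.09 ± 0.19), and Ptges, a prostaglandin E synthase, averaged 24.3 and 64.9. Between Model and Cal headings Ptges was higher in the libraries headed Model, at 158 against 58.1, and the constitutive cyclooxygenase gene Ptgs1 lower, at 24.8 against 156, both calls.

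Lpar1, Lpar4 and Lpar6 are receptors for lysophosphatidic acid, and all 3 were lower in the libraries headed Cal (averaged under Model) in the table that listed them. Lpar4 had normalized counts of 41.00, 43.2 and 38.5 in the libraries headed Con and 11.3, 17.9 and 14.3 in those headed Cal, a call of -1.45 ± 0.27 (adjusted p = 0.00213) with no library between 18 and 38. Lpar1 was called at -1.43 ± 0.27 against Model, and Lpar6 was -0.82 ± 0.17 against Con. S1pr1, the sphingosine phosphate receptor of endothelium, was 0.53 ± 0.16 with overlapping groups, and it lost the limit under quantile normalization (adjusted p = 0.785) and median-ratio scaling (adjusted p = 0.206). Sphk1, which makes its ligand, averaged 33.7 in the libraries headed Con and 302 in those headed Cal, and 1023 in those headed Model against 269.9 in the same Cal libraries on the scale of the other table. Both Sphk1 differences were calls.

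Adhesion receptors carry long extracellular domains that bind matrix or neighbouring cells. The treatment table listed 10, with 6 higher and 4 lower in its Cal libraries and Adgrl2 changing from -0.44 ± 0.14 to 0.043 under quantile normalization (adjusted p = 0.791). Adgrl4, an endothelial receptor of growing vessels, had normalized counts of 1188, 1764 and 1733 in the libraries headed Con, 252, 144 and 116 in those headed Model and 1131, 1036 and 1097 in those headed Cal. Model libraries were far below, Con library 1 was well under the other Con libraries but still above all Cal libraries, and the differences were 2.74 ± 0.27 from Model (adjusted p = 0.000281) and -0.50 ± 0.15 from Con. Adgrg2, best known from the epididymis, had normalized counts of 71.3, 113 and 69.01 in the libraries headed Model and 12.9, 32.9 and 27.3 in those headed Cal, a call of -1.81 ± 0.39 in the lower direction. Adgrf5, abundant in endothelium, was -1.09 ± 0.16, a call that both other scalings brought within the fold limit (-0.37 and -0.79), as did leaving out Cal replicate 2 (-0.97). The remaining ones ran from -2.11 ± 0.69 for Adgrv1, whose groups overlapped and which lost the limit without Model replicate 2, Model replicate 3 or Cal replicate 1 (adjusted p up to 0.0678), to 1.63 ± 0.45 for the latrophilin gene Adgrl3, with Adgre5, the leukocyte antigen CD97, at 1.08 ± 0.18, or 0.96 without Model replicate 2. Adgra2, of blood vessel growth in the brain, was called higher at 1.37 ± 0.32, without overlap but just within the fold limit without Model replicate 2, and its relative Adgra3 and the latrophilin gene Adgrl1 were 0.95 ± 0.15 and 0.74 ± 0.20, under the fold limit. Against sham Adgrg1 was 0.66 ± 0.13 and Adgrd1 0.61 ± 0.13, neither called. Adgrg1 lost the limit under quantile normalization (adjusted p = 0.159) and Adgrd1 under median-ratio scaling (adjusted p = 0.0619).

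Endothelial markers also differed between the groups. The treatment table listed 8 of 10 endothelial markers, 7 of them higher and Robo4 lower for the heading Cal, and their sum was 7648 to 9288 headed Model and 11964 to 14722 headed Cal. The sham table listed 7, each lower for the heading Cal, with sums of 25311 to 28875 headed Con and 15537 to 18445 headed Cal. Their part in the values of Adgrl4, Aplnr, Calcrl, Ramp2, Ramp3, Gng11 and the other vascular genes was not tested.

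The receptors still named Gpr, many of them orphans without an agreed ligand, spanned the widest range. The treatment table listed 15, of which 7 were higher and 8 lower under the heading Cal (averaged under Model) under all 3 scalings. Gpr37l1 (ENSMUSG00000026424), an orphan receptor best known from glia, had normalized counts of 0, 0 and 0 in the libraries headed Model and 15.7, 11.3 and 26.5 in those headed Cal. No read fell on it in any Model library, so its level was at least 5.47-fold higher in the libraries headed Cal, set against 3 reads per library. Gpr22, an orphan receptor of heart and brain, had normalized counts of 107, 133 and 46.96 in the libraries headed Model and 577, 464 and 407 in those headed Cal. The lowest Cal library was more than 270 above the highest Model library, a difference of 2.43 ± 0.38 (adjusted p = 0.00116).

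Gpr141 and Gpr171, both known from blood cells, lay at the other end. Gpr141 had normalized counts of 28.1, 12.2 and 18.2 in the libraries headed Model and 0, 0 and 0.854 in those headed Cal, 55 reads against 1 read, a ratio of 65.5 with a counting interval of 11.3 to 2632. Gpr171 had normalized counts of 12.96, 4.88 and 1.92 in the libraries headed Model and 0, 0 and 0 in those headed Cal, and with no read in the Cal libraries it was at least 2.43-fold higher in the libraries headed Model, most of it from Model library 1. Gpr35, found on myeloid and gut cells, had normalized counts of 60.5, 89.02 and 75.7 in the libraries headed Model and 9.22, 12.2 and 23.9 in those headed Cal, apart at -2.33 ± 0.38 (adjusted p = 0.00141). The scarce Gpr18 and Gpr176 followed, Gpr18 with normalized counts of 11.9, 17.1 and 8.63 in the libraries headed Model and 3.69, 0.939 and 3.42 in those headed Cal, a difference of -1.93 ± 0.49, without overlap. Gpr176, a receptor of the circadian clock centre, had normalized counts of 41.04, 18.3 and 25.9 in the libraries headed Model and 9.22, 4.69 and 5.98 in those headed Cal, again apart, at -1.92 ± 0.41. Gpr161, a receptor of the primary cilium, and Gpr146 were also called lower in the libraries headed Cal, at -1.36 ± 0.24 and -1.35 ± 0.15, and Gpr146 came within the fold limit under quantile normalization (-0.82). Gpr157 was called higher at 1.16 ± 0.19, without overlap.

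Gpr84, a receptor for medium-chain fatty acids that myeloid cells make when activated, differed in both tables. It had normalized counts of 0, 2.64 and 0 in the libraries headed Con, 74.5, 85.4 and 37.4 in those headed Model and 30.4, 35.7 and 25.6 in those headed Cal. Con libraries held 3 reads in all against 101 in the Cal libraries, a ratio of 34.9 with a counting interval of 11.6 to 172. Libraries headed Model were higher again, and the Model to Cal difference, -1.01 ± 0.35 (adjusted p = 0.0233), missed the adjusted p limit under median-ratio scaling (adjusted p = 0.0753) and without Model replicate 1, Model replicate 2, Cal replicate 1 or Cal replicate 3 (adjusted p up to 0.0783). Gpr132, a receptor of macrophages and lymphocytes, had normalized counts of 5, 7.91 and 3.62 in the libraries headed Con, 59.4, 48.8 and 51.8 in those headed Model and 101, 84.5 and 104 in those headed Cal. Its Con libraries had fewer than 10 each and Cal libraries were highest, 3.98 ± 0.31 above Con (adjusted p = 2.18e-05) and 0.85 ± 0.21 above Model. Gpr34, a receptor of macrophages and microglia, was called higher in the libraries headed Cal at 2.04 ± 0.74, with Cal library 2 inside the Model range, and lost the limit without Model replicate 3, Cal replicate 1 or Cal replicate 3 (adjusted p up to 0.0979).

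Leukocyte markers also differed between the groups, in both directions. Of 10 neutrophil markers 9 were listed in the treatment table, all called lower in the libraries headed Cal, with sums of 1085 to 1162 headed Model and 83.02 to 255 headed Cal. Of 10 macrophage markers 7 were listed, 6 higher and Itgam lower, with sums of 2439 to 3884 and 6919 to 8368. Against sham S100a8 and S100a9 were the neutrophil markers listed, both called higher in the libraries headed Cal, with sums of 13.05 to 28.5 headed Con and 48.5 to 183 headed Cal. Mrc1 was the macrophage marker listed there, lower in the libraries headed Cal and not called, with means of 988 headed Con and 703 headed Cal (-0.49 ± 0.094). In the treatment table Gpr84, Gpr35, Gpr141, Gpr171, Gpr18 and Adora3 were lower for the heading Cal. Gpr132 and Gpr34 were higher there, Gpr34 with overlapping groups. Against sham both Gpr84 and Gpr132 were higher for the heading Cal. The part of the leukocyte markers in the values of Gpr84, Gpr35, Gpr141, Gpr171, Gpr132, Adora3 and the other leukocyte receptors was not tested.

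Gpr137b encodes a lysosomal membrane protein with the fold of a receptor, and reads shared with its near copy Gpr137b-ps could have been split between them, so both values are uncertain. Gpr137b had normalized counts of 116, 151 and 119 in the libraries headed Con, 25.9, 14.6 and 17.3 in those headed Model and 82.1, 83.5 and 85.4 in those headed Cal. Gpr137b-ps had normalized counts of 140.0, 157 and 148 in the libraries headed Con, 32.4, 48.8 and 33.5 in those headed Model and 88.6, 83.5 and 85.4 in those headed Cal. Both were highest in Con, intermediate in Cal and lowest in Model, with no overlap, at 2.10 ± 0.27 and 1.17 ± 0.24 for Cal over Model and -0.61 ± 0.16 and -0.78 ± 0.14 for Cal over Con. Quantile normalization brought Gpr137b-ps to 0.95 against Model, within the fold limit. Against sham Gpr17, a receptor of oligodendrocyte precursors, had normalized counts of 19.6, 30.4 and 15.2 in the libraries headed Con and 7.22, 5.26 and 6.67 in those headed Cal, a call of -1.58 ± 0.38 in the lower direction, while Gpr182, an endothelial receptor, was -0.65 ± 0.17 and the proton sensor Gpr4 0.77 ± 0.22 with overlapping groups. The difference of Gpr4 lost the limit under quantile normalization (adjusted p = 0.0560) and median-ratio scaling (adjusted p = 0.0824).

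**Figure D3:**
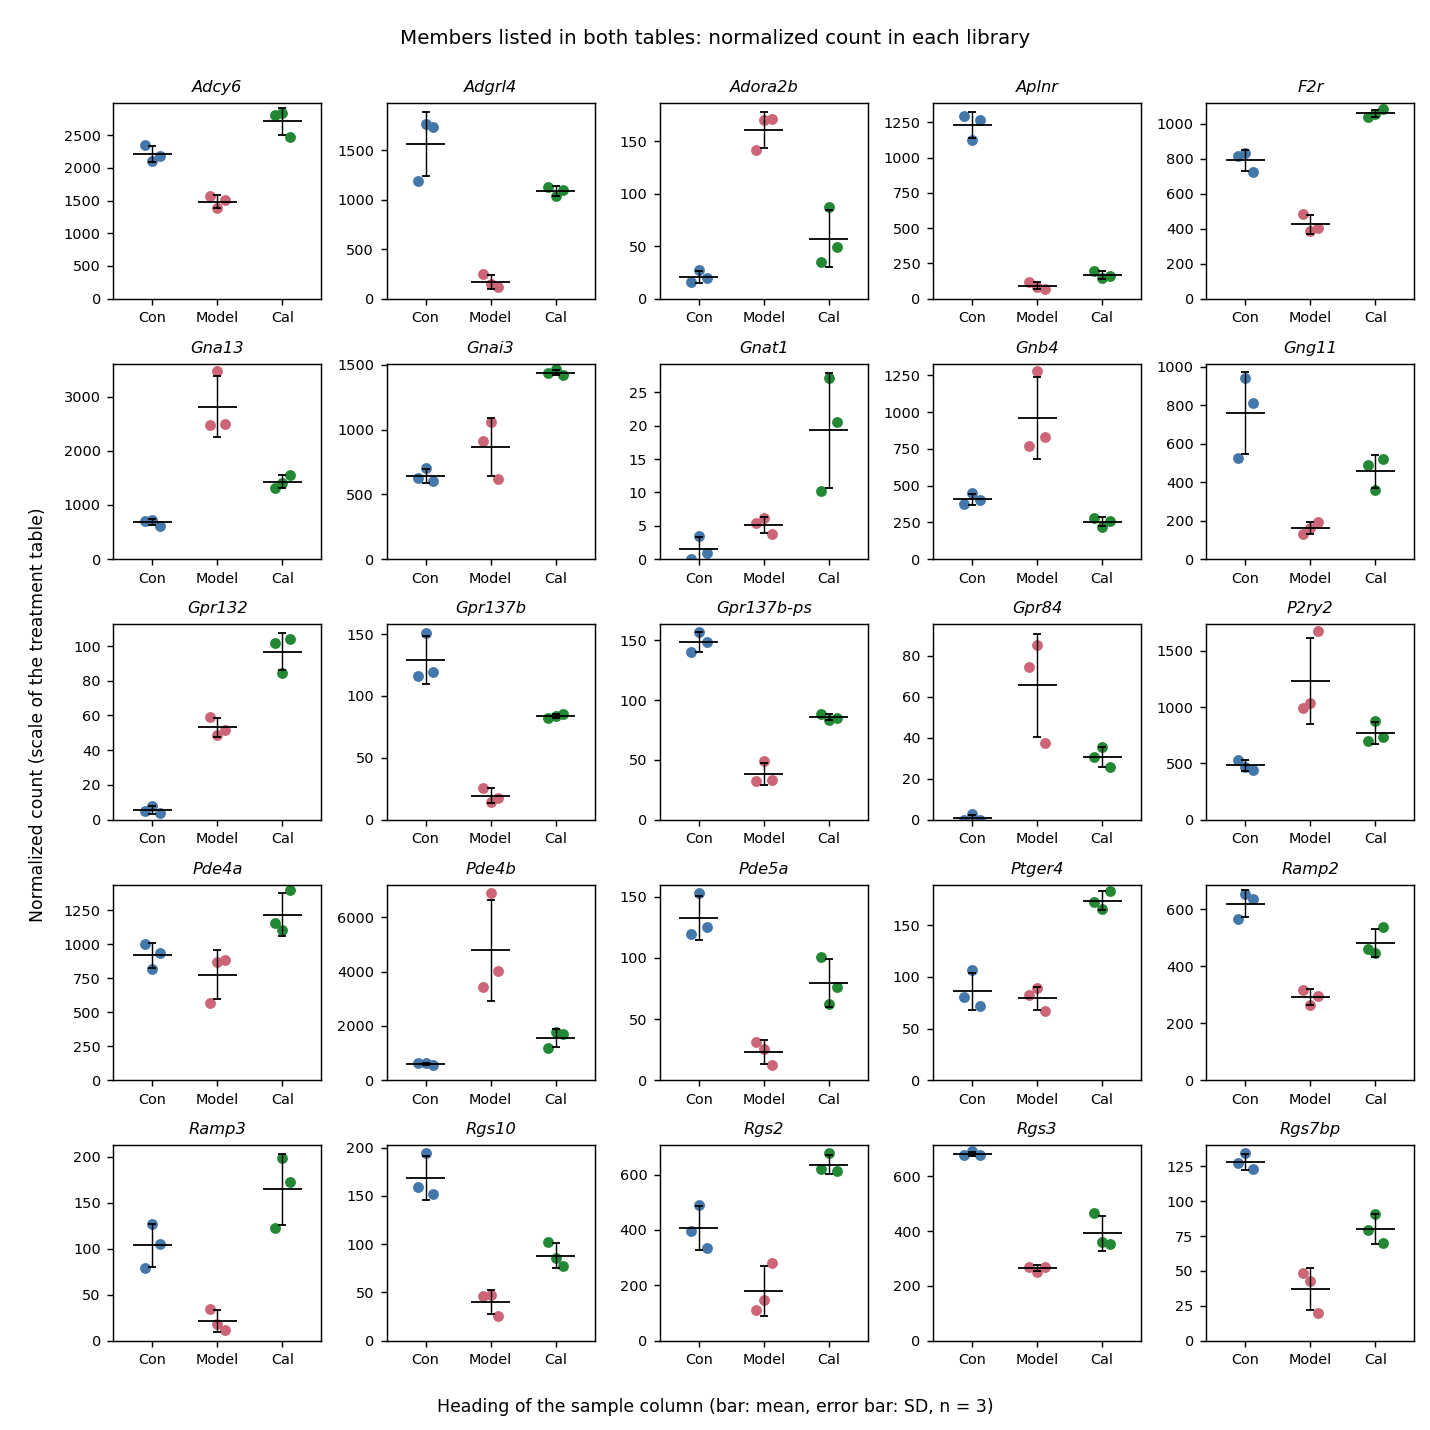
Normalized counts of the 25 members listed in both tables, 1 point per library and 3 libraries per heading, with the mean as a line and the SD as an error bar. The Con libraries are brought to the scale of the treatment table by the factor 0.894, the libraries headed Cal are averaged by the authors under Model, and those headed Model under Cal. In 10 panels, Aplnr, Gng11 and Rgs3 among them, levels run from Con through Cal down to Model.

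Among the G protein subunits, the gamma genes Gng12 and Gng11 were both called in the treatment table, in opposite directions. Gng12 (ENSMUSG00000036402), a widely expressed gamma subunit, had normalized counts of 3236, 3655 and 2609.9 in the libraries headed Model and 667, 730.2 and 714 in those headed Cal, or 3167 ± 526 against 704 ± 32.9 (SD, n = 3). Every Model library held more than 3 times the level of any Cal library, and the log2 fold change was -2.16 ± 0.16, with the lowest adjusted p of the table's members (0.000133). Gng11, a gamma subunit of vessels and platelets, had normalized counts of 525, 942 and 813 in the libraries headed Con, 131, 163 and 191 in those headed Model and 491, 357 and 520.1 in those headed Cal. It went the other way, 1.49 ± 0.22 for Cal over Model (adjusted p = 0.000957), and stood highest in Con, where library 1 lay close to the Cal range and the Cal over Con difference was -0.71 ± 0.23. That difference lost the limit without Con replicate 2 or Con replicate 3, with adjusted p up to 0.0534. Within a library, the level of Gng12 per kilobase of gene length was 3.94 ± 1.13 times that of Gng11 in the libraries headed Model and 0.310 ± 0.0765 times in those headed Cal, without overlap (exact permutation test, two-sided p = 0.1, the smallest that 3 against 3 allows). Both genes already lay apart in opposite directions, so their ratio had to separate the groups and the test adds nothing. Gng5, another gamma gene, was -0.50 ± 0.13, which lost the limit under quantile normalization (adjusted p = 0.882) and median-ratio scaling (adjusted p = 0.166).

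The promoters of these 2 gamma genes are shown because both were called, in opposite directions. They are rat sequences matched to the members by symbol, since the deposited identifiers are those of mouse genes. RefSeq's GRCr8 assembly gave 1 or more promoters of 300 bases, from 250 before to 50 after the start, for 78 of the 98 members. These were 92 promoters in all. Each was searched on both strands for the cAMP response element TGACGTCA, the site through which cAMP acts on transcription, and for the AP-1 site TGACTCA. The first was found in 1 of the 78 members (1.28%), against 1.83% of 33469 rat promoters, and the second in 4 (5.13%), Adora3, F2r, Gng12 and Rgs12, against 4.63%. A member was counted if any of its promoters matched, and the rat promoters were counted singly. The shares are thus on unlike bases, and no difference is read from them. Adora3 and Gng12 were lower and F2r and Rgs12 higher in the libraries headed Cal than in those headed Model. Capitals mark a match and the rest is in lower case. Gng12 lies at chr4:97365711-97366010 on the plus strand, with its AP-1 letters beginning 59 bases before the start. Gng11 lies at chr4:32977431-32977730 on the plus strand, with neither motif.
Gng12: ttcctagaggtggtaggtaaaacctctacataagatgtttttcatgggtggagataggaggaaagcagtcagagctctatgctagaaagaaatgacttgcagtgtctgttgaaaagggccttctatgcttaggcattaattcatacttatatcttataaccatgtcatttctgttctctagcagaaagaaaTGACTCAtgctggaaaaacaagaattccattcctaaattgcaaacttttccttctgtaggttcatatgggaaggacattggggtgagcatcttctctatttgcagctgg
Gng11: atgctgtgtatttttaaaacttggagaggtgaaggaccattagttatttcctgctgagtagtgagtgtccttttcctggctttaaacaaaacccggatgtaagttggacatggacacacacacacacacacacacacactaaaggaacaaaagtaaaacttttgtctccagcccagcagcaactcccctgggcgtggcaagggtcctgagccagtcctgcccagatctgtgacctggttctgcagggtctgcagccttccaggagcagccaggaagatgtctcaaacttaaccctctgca

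For the beta subunits, which pair with the gamma subunits, Gnb4 had normalized counts of 373, 448 and 401 in the libraries headed Con, 768, 1277 and 832 in those headed Model and 282, 221 and 258 in those headed Cal. Model libraries were highest and Cal libraries lowest, with Con between and no overlap, -1.88 ± 0.22 against Model (adjusted p = 0.000439) and -0.69 ± 0.13 against Con. Gnb5, the beta subunit that pairs with certain RGS proteins, was 0.62 ± 0.20, and lost the limit without Model replicate 1 or Cal replicate 1 (adjusted p up to 0.0558). Per kilobase, Gnb4 was 1.11 ± 0.428 times Gnb5 in the libraries headed Model and 0.186 ± 0.0203 times in those headed Cal (exact permutation p = 0.1). Against Con, Gnb4 was 0.0408 ± 0.00450 times Gng11 in the libraries headed Cal and 0.0406 ± 0.00949 times in those headed Con, with overlapping groups (exact permutation p = 0.8). These pairs, like the other gene pairs whose ratios are given, were chosen after the values were seen. Where the genes of a pair lay apart in opposite directions, their ratio had to separate the groups. This holds for Gnb4 over Gnb5, Gna13 over Gna12, Pde4b over Pde4a or Pde4d against Model, and Rgs2 over Rgs3 against Con.

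Of 7 alpha subunit genes listed in the treatment table, 6 were higher in the libraries headed Cal (averaged under Model) and Gna13 was lower, under all 3 scalings. Among all listed genes 46.0% were higher and 53.7% lower at the adjusted p limit on the authors' scale. Gna13, of the G12 family, had normalized counts of 698, 728 and 616 in the libraries headed Con, 2476, 3465 and 2494 in those headed Model and 1315, 1409.8 and 1555 in those headed Cal. Model libraries were highest and Con lowest, with Cal between and no overlap, -0.96 ± 0.17 against Model and 1.07 ± 0.10 against Con (adjusted p = 7.81e-05). The second was called, but came within the fold limit under both other scalings (0.65 and 0.78) and without Con replicate 3 (1.00). Its close relative Gna12 was 0.53 ± 0.14 for Cal over Model. Per kilobase, Gna13 was 1.08 ± 0.344 times Gna12 in the libraries headed Model and 0.373 ± 0.0182 times in those headed Cal (exact permutation p = 0.1).

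Gnai3, an inhibitory alpha subunit, had normalized counts of 623, 703 and 601 in the libraries headed Con, 910.4, 1059.7 and 618 in those headed Model and 1433, 1465 and 1423 in those headed Cal. Cal libraries were within 3% of their mean and above all others, whereas Model and Con overlapped. The differences were 0.77 ± 0.20 against Model and 1.17 ± 0.091 against Con (adjusted p = 2.14e-05), and the call against Con was within the fold limit under both other scalings (0.74 and 0.88). Gnas, the stimulatory subunit from a complex imprinted locus with overlapping transcripts, had normalized counts of 676, 432 and 467 in the libraries headed Con and 1268, 1311 and 1199 in those headed Cal. Groups lay apart at 1.29 ± 0.16 (adjusted p = 0.000342), or 0.92 under quantile normalization.

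The other alpha genes were scarcer. Gnat1, the transducin subunit of rod photoreceptors, had normalized counts of 0, 3.51 and 0.905 in the libraries headed Con, 5.40, 6.10 and 3.83 in those headed Model and 10.1, 27.2 and 20.5 in those headed Cal. Cal libraries exceeded all others, by 1.65 ± 0.43 against Model and 3.29 ± 0.68 against Con, on few reads. Gna14, of the Gq family, had normalized counts of 1.08, 0 and 0 in the libraries headed Model and 10.1, 5.63 and 5.98 in those headed Cal, 24 reads against 1 read, a ratio of 20.2 with a counting interval of 3.29 to 829. Gna15, the Gq family member of blood cells, had normalized counts of 23.3, 16.7 and 27.3 in the libraries headed Con and 8.25, 5.26 and 7.62 in those headed Cal, a call of -1.54 ± 0.36 in the lower direction for the libraries headed Cal. Gna11, the Gq family subunit of the heart, and the inhibitory Gnao1 were 0.66 ± 0.17 and 0.78 ± 0.20 for Cal over Model. Summed per kilobase, the 5 alpha genes of the sham table came to 397 ± 25.2 in the libraries headed Con and 865 ± 20.7 in those headed Cal. Each was listed because it had passed the authors' test, and 4 of the 5 were higher, so these sums had to lie apart. Alpha genes missing from that table are not in the sum, which is not the level of all alpha genes. Gnao1 is shown because it was the only one of the 78 members with a cAMP response element in a promoter. The element begins 121 bases before the start. The promoter lies at chr19:11198388-11198687 on the minus strand.
Gnao1: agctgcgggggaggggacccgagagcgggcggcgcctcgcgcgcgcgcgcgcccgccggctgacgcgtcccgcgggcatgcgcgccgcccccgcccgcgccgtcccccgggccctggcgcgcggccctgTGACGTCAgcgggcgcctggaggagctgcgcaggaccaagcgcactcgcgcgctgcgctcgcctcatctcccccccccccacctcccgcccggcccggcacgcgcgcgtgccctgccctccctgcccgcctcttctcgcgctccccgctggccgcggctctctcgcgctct

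**Figure D4:**
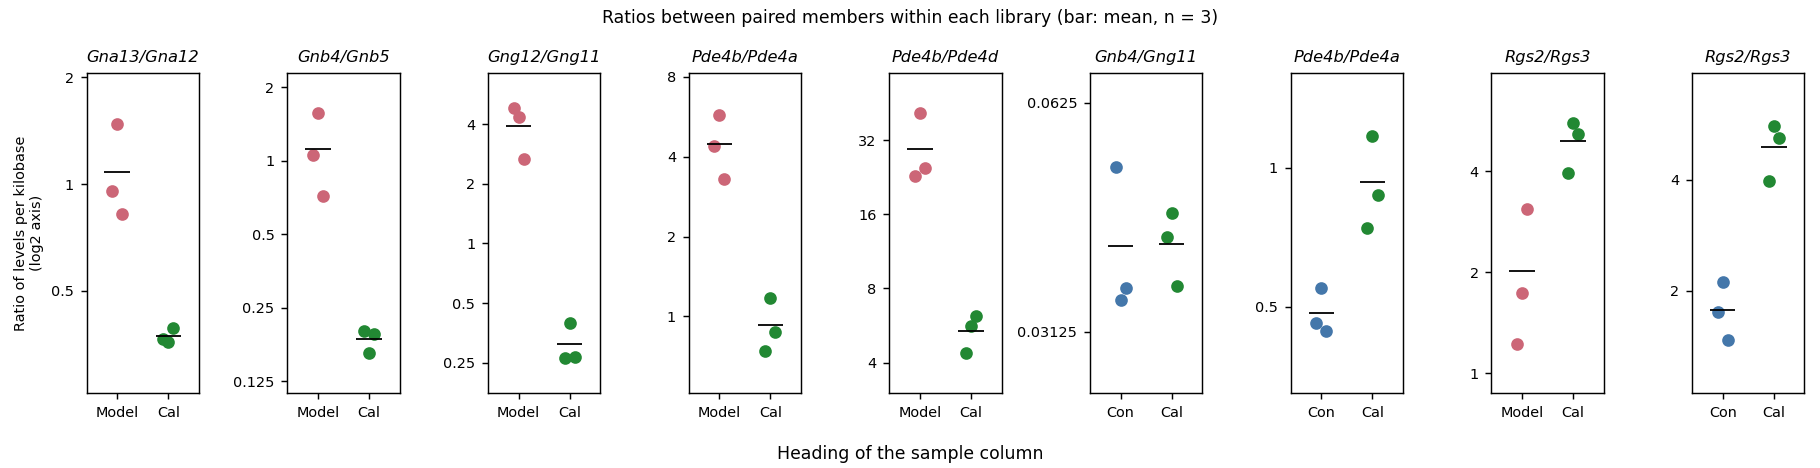
Ratios of levels per kilobase between pairs of members within each library, on log2 axes, with the mean of 3 libraries as a line. The libraries headed Cal are averaged by the authors under Model and those headed Model under Cal. Groups lie apart in 8 of the 9 panels and overlap for Gnb4 over Gng11 against Con, and Gng12 over Gng11 has a mean of 3.94 headed Model and 0.310 headed Cal. Pairs were chosen after the values were seen, and for most of them the genes already lay apart in opposite directions, which fixes the separation.

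All 5 genes of the Rgs pattern in the treatment table were higher in the libraries headed Cal (averaged under Model), under all 3 scalings. Of the 9 listed against sham, 7 were lower in those libraries than in Con, again under all 3 scalings. Both counts include Rgs7bp, which encodes a binding partner of an RGS protein. At the adjusted p limit on the authors' scale, 46.0% of all listed genes were higher in the treatment table. The share of all listed genes that were lower in the sham table was 39.2%. Rgs2, which turns off Gq signals and lowers blood pressure, had normalized counts of 397, 492 and 334 in the libraries headed Con, 111, 146 and 281 in those headed Model and 619.9, 677 and 612 in those headed Cal. Cal libraries were highest and Model libraries lowest, without overlap. The difference was 1.93 ± 0.32 against Model (adjusted p = 0.00149) and 0.66 ± 0.15 against Con, the latter missing the limit under quantile normalization (adjusted p = 0.0773) and median-ratio scaling (adjusted p = 0.0558). Rgs3, a regulator of inhibitory and Gq signals, had normalized counts of 677, 692 and 677 in the libraries headed Con, 270.0, 251 and 270.3 in those headed Model and 467, 360.4 and 352 in those headed Cal. It was highest in Con and lowest in Model with no overlap, and neither step was called (0.56 ± 0.16 and -0.81 ± 0.13), the first missing the limit without Cal replicate 1 (adjusted p = 0.0504). Rgs12 was 0.95 ± 0.17 against Model, under the fold limit. Per kilobase, Rgs2 was 4.91 ± 0.852 times Rgs3 in the libraries headed Cal, 2.02 ± 0.965 times in those headed Model and 1.78 ± 0.325 times in those headed Con (exact permutation p = 0.1 for Cal against either).

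Rgs16 (ENSMUSG00000026475), a regulator of inhibitory and Gq signals that cytokines induce, stood out against sham. It had normalized counts of 42.9, 36.3 and 15.2 in the libraries headed Con and 355, 599 and 445 in those headed Cal, or 31.5 ± 14.5 against 466 ± 123 (SD, n = 3). The lowest Cal library was more than 8 times the highest Con library, with a log2 fold change of 3.94 ± 0.37 (adjusted p = 6.85e-05). Rgs16 and Rgs2 were the RGS genes that were higher in the libraries headed Cal in that table.

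The other RGS genes were lower than in Con. Rgs14, a regulator of inhibitory G proteins, had normalized counts of 18.6, 20.6 and 24.3 in the libraries headed Con and 4.13, 6.31 and 1.90 in those headed Cal, and Rgs18, of platelets and their precursors, had normalized counts of 20.5, 33.4 and 13.2 in the libraries headed Con and 10.3, 5.26 and 3.81 in those headed Cal. Both were scarce, with no overlap, and were called at -2.21 ± 0.44 and -1.65 ± 0.48. Rgs10, an RGS protein of leukocytes and platelets, had normalized counts of 159, 194 and 152 in the libraries headed Con, 46.4, 47.6 and 25.9 in those headed Model and 102, 85.4 and 76.9 in those headed Cal. It ran from Con through Cal to Model without overlap, 1.16 ± 0.30 for Cal over Model and -0.93 ± 0.17 for Cal over Con. Rgs7bp had normalized counts of 127, 134 and 123 in the libraries headed Con, 48.6, 42.7 and 20.1 in those headed Model and 79.3, 91.05 and 70.03 in those headed Cal, in the same order and also apart, 1.17 ± 0.35 and -0.68 ± 0.16. Calls of both against Model came within the fold limit under quantile normalization (0.97 and 0.99) and without Model replicate 3 (0.88 and 0.79). Rgs5, the marker of pericytes, was the most abundant member per kilobase in that table, 3229 in Con and 2240 in Cal, with a difference of -0.52 ± 0.10, and Rgs4 was -0.86 ± 0.14. All 5 listed markers of smooth muscle cells and pericytes, Rgs5 among them, were lower in the libraries headed Cal than in Con. Their sums were 19623 to 23121 in Con and 14136 to 15865 in Cal. Rgs5 itself averaged 14678 and 10185, so it makes up most of these sums. The rest ran from -1.34 for Kcnj8 to -0.34 for Myh11. The treatment table listed 4 markers of these cell types, Rgs5 not among them. All were higher in the libraries headed Cal, with sums of 5918 to 6650.0 headed Model and 9119 to 10165 headed Cal. Their part in the values of the RGS genes was not tested.

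The treatment table listed 3 adenylyl cyclases, which make cAMP. Each was higher in the libraries headed Cal (averaged under Model) than in those headed Model, under all 3 scalings. Of all listed genes 46.0% were higher at the adjusted p limit on the authors' scale, and cyclases missing from the table were not analysed. Adcy5 and Adcy6 are the main forms of cardiomyocytes. Adcy6 had normalized counts of 2352, 2105 and 2175 in the libraries headed Con, 1569, 1379 and 1501 in those headed Model and 2808, 2847 and 2478 in those headed Cal. Groups did not overlap, and the Cal over Model difference was 0.87 ± 0.13 (adjusted p = 0.000988). Against Con it was 0.29 ± 0.086, and under quantile normalization its sign changed (-0.18, adjusted p = 0.106), while median-ratio scaling gave adjusted p = 0.927. Adcy7, known from blood cells, had normalized counts of 66.95, 36.6 and 43.1 in the libraries headed Model and 285, 166 and 276 in those headed Cal. The groups lay apart at 2.29 ± 0.31 (adjusted p = 0.000748), the only call among cyclases on the authors' scale. Against Model, Adcy6 was also called under quantile normalization (1.38) and median-ratio scaling (1.17), and Adcy5 under quantile normalization (1.14). Adcy5 was 0.66 ± 0.18, and Adcy9 was 0.47 ± 0.16 against Con, losing the limit under quantile normalization (adjusted p = 0.351), under median-ratio scaling (adjusted p = 0.281) and without Con replicate 2 or Cal replicate 3 (adjusted p up to 0.0562). Summed per kilobase, the 3 cyclases of the treatment table came to 381 ± 43.2 in the libraries headed Model and 676 ± 27.1 in those headed Cal. All 3 were listed because they had passed the authors' test and all were higher, so these sums had to lie apart.

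The treatment table held 13 phosphodiesterase genes, of which 10 were higher in the libraries headed Cal (averaged under Model) and 3 were lower, under all 3 scalings. Among all listed genes 46.0% were higher and 53.7% lower at the adjusted p limit on the authors' scale. The 3 lower ones were Pde4b and both listed genes of the calcium-stimulated PDE1 family. Pde4b (ENSMUSG00000028525), a cAMP-specific enzyme of inflammatory and cardiac cells, had normalized counts of 636, 620.1 and 571 in the libraries headed Con, 3421, 6884 and 4029 in those headed Model and 1176, 1784 and 1683 in those headed Cal. Model libraries were highest, Con libraries lowest and within 100 of each other, and no group overlapped. The difference was -1.58 ± 0.29 against Model (adjusted p = 0.00209) and 1.32 ± 0.15 against Con (adjusted p = 0.000235), and the second was 0.92 under quantile normalization. Pde1a had normalized counts of 301, 387 and 217 in the libraries headed Model and 98.7, 59.1 and 107 in those headed Cal, apart at -1.77 ± 0.30 (adjusted p = 0.00173), and Pde1b was -1.12 ± 0.26, within the fold limit under median-ratio scaling (-0.83) and without Model replicate 2 (-0.95).

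The other PDE4 genes went against Pde4b. Pde4a had normalized counts of 997, 819 and 932 in the libraries headed Con, 565, 871 and 883 in those headed Model and 1151, 1101 and 1395 in those headed Cal. Cal libraries were highest, while Con and Model overlapped. The differences were 0.67 ± 0.21 from Model, with adjusted p = 0.0534 without Cal replicate 3, and 0.40 ± 0.12 from Con, and the latter changed sign under quantile normalization (-0.032, adjusted p = 0.822) and lost the limit under median-ratio scaling (adjusted p = 0.342). Pde4c had normalized counts of 21.6, 12.2 and 6.71 in the libraries headed Model and 64.6, 71.3 and 80.3 in those headed Cal, a call of 2.46 ± 0.41 (adjusted p = 0.00149) with no overlap, and Pde4d was 0.83 ± 0.15. Per kilobase, Pde4b was 4.48 ± 1.21 times Pde4a in the libraries headed Model, 0.930 ± 0.222 times in those headed Cal and 0.485 ± 0.0562 times in those headed Con, and the groups lay apart in both tables (exact permutation p = 0.1 in each). Against Pde4d the ratio was 29.6 ± 10.1 headed Model and 5.39 ± 0.925 headed Cal. The sum of the 4 PDE4 genes per kilobase was 571 ± 191 headed Model and 345 ± 42.4 headed Cal.

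Pde5a, the cGMP-specific enzyme that sildenafil blocks, had normalized counts of 119, 153 and 125 in the libraries headed Con, 31.3, 25.6 and 12.5 in those headed Model and 101, 61.9 and 76.01 in those headed Cal. It was highest in Con and lowest in Model without overlap, 1.80 ± 0.38 for Cal over Model (adjusted p = 0.00374) and -0.75 ± 0.21 for Cal over Con. Pde3a, the main cGMP-inhibited phosphodiesterase of the heart, and Pde3b were 0.85 ± 0.12 and 0.85 ± 0.18, with none called on the authors' scale. Pde3a was called under quantile normalization (1.31), and both were under median-ratio scaling (1.15 each). The cAMP-specific Pde8b was called at 1.59 ± 0.33, and Pde7a, Pde8a and Pde10a lay between 0.70 ± 0.16 and 0.99 ± 0.33, with Pde10a losing the limit under quantile normalization (adjusted p = 0.0779) and without Model replicate 2 or Cal replicate 3 (adjusted p up to 0.0798).

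**Figure D5:**
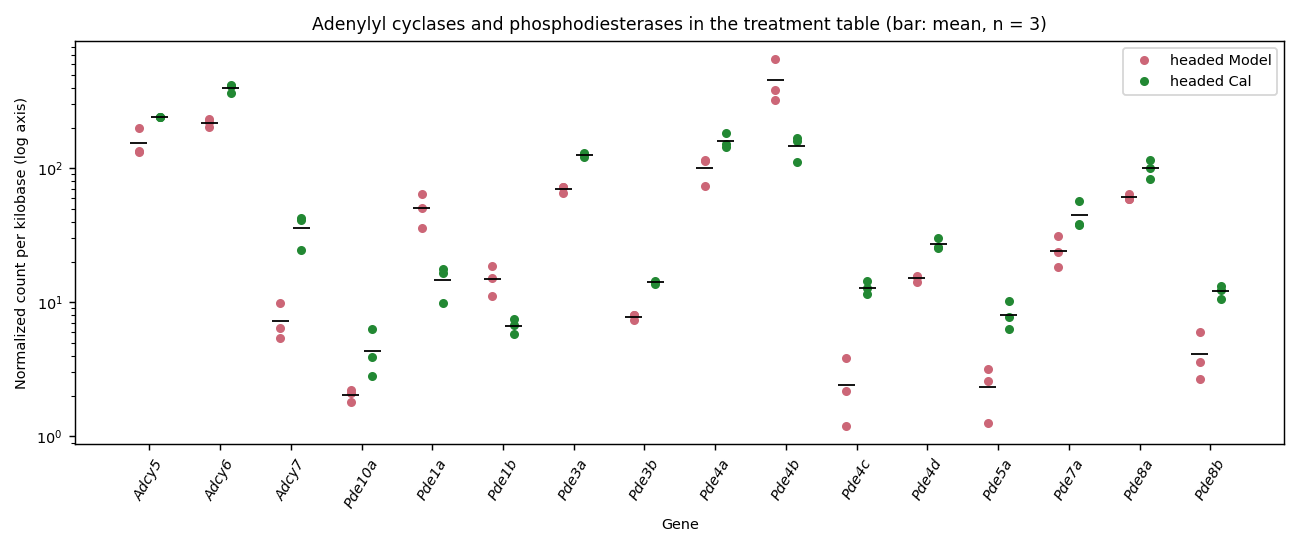
Levels per kilobase of gene length, on a log axis, of the 3 adenylyl cyclases and 13 phosphodiesterases of the treatment table in each library, with the mean of 3 as a line. The libraries headed Cal are averaged by the authors under Model and those headed Model under Cal. Pde4b, Pde1a and Pde1b are lower in the libraries headed Cal, and Pde4b is the most abundant of the 16 genes in those headed Model.

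The 25 members of both tables fell into 5 orders of level across the 3 headings. In 10 the order from high to low was Con, Cal, Model, and these were Adgrl4, Aplnr, Gng11, Gpr137b, Gpr137b-ps, Pde5a, Ramp2, Rgs10, Rgs3 and Rgs7bp, none with overlapping neighbours. In 6 the order was Cal, Con, Model, namely Adcy6, F2r, Pde4a, Ptger4, Ramp3 and Rgs2, with overlapping lower neighbours for Pde4a and Ptger4 and overlapping upper neighbours for Ramp3. In 5 it was Model, Cal, Con, namely Adora2b, Gna13, Gpr84, P2ry2 and Pde4b, with no overlap. The remaining 3 with Cal highest and Con lowest were Gnai3, whose Model and Con libraries overlapped, Gnat1 and Gpr132, and Gnb4 was the 1 with Cal lowest. These orders rest on levels brought to 1 scale through the shared libraries and carry no test. They were not counted over all 986 genes listed in both tables. The libraries headed Cal lay apart from Model for 98.2% of all genes of the treatment table. In the sham table they lay apart from Con for 97.4%. A lack of overlap with Cal is therefore no trait of these members.

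Among the members that the treatment table listed, the most abundant per kilobase also differed by heading. In the libraries headed Model they were Adgrf5 at 998, Gng12 at 670, Gpr146 at 534 and Gng5 at 499. In those headed Cal of the same table they were Gna12 at 596, Gng11 at 496, Adgrf5 at 471 and Gnai3 at 442. Only Adgrf5 is in both of these sets of 4. Rgs5 and S1pr1 could not be ranked here, since the treatment table did not list them. In the sham table, on its own scale, they stood at 2240 and 970 in the same libraries headed Cal.

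Genes that act with the members were counted from 4 lists. Of 31 genes of cAMP and protein kinase A signalling, 9 were listed in the treatment table, with 4 called higher in the libraries headed Cal (averaged under Model) and 1 lower, or 55.6% called against 60.1% of all listed genes, and a median of 0.78 against -0.52. Akap6, an anchor of protein kinase A at the cardiomyocyte nuclear envelope, averaged 986 headed Model and 2257 headed Cal, and Creb1, the factor that binds the cAMP response element, 307 and 727. The regulatory subunit genes Prkar2b (2.51 ± 0.31) and Prkar1b (-2.08 ± 0.20) were called in opposite directions. Against sham 8 were listed, and the anchors Akap12 (2.84 ± 0.28, higher) and Akap5 (-2.91 ± 0.38, lower) were called, 2 of 8 against 29.0% of all listed genes.

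Of 31 genes of phospholipase C, calcium release and protein kinase C, 13 were listed in the treatment table, 2 called higher in the libraries headed Cal (Itpr3 and Prkcb, 1.18 ± 0.30 and 2.49 ± 0.37) and 2 lower (the diacylglycerol kinases Dgkh and Dgki, -1.22 ± 0.24 and -2.28 ± 0.54). The share called was 30.8%, against 60.1% of all listed genes, and the median was 0.66 against -0.52. Against sham 5 were listed. Of 25 receptor kinases, arrestins and exchange factors 6 and 5 were listed, and 4 of 6 and 3 of 5 were called, against 60.1% and 29.0% of all listed genes. The arrestin gene Arrb2 was called higher in the libraries headed Cal than Model (1.33 ± 0.37), and the arrestin-domain genes Arrdc2, Arrdc3 and Arrdc4 were called lower (-1.23 ± 0.18, -1.16 ± 0.21 and -1.76 ± 0.19). Against sham Arrdc2 and Arrdc4 were called higher in the same libraries (1.89 ± 0.16 and 1.02 ± 0.16) and Arrdc1 lower (-1.29 ± 0.28).

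The last list held 41 genes of ligands and of proteins that make, break down or take up ligands. The treatment table listed 10 of them, with a median of -1.26 against -0.52 for all genes. In the libraries headed Cal 3 were called higher (Apln, Entpd1 and Ptgs1) and 6 lower (Adm, Agt, Edn1, Ptges, Slc6a4 and Sphk1). That is 9 of 10 called, against 60.1% of all listed genes, 28.4% higher and 31.6% lower. Slc6a4 encodes the serotonin transporter, and no serotonin receptor was among the members. Agt, the precursor of angiotensin, was -1.08 ± 0.33, against 0.60 ± 0.17 for the receptor gene Agtr1a. Entpd1, which breaks down extracellular ATP, was 1.28 ± 0.13. Against sham 7 were listed, Ptgs2, Sphk1 and Ptges called higher in the libraries headed Cal and none lower, 42.9% called against 29.0% of all listed genes, with a median of 0.94 against 0.37 for all genes.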

How the data were processed

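The 9 libraries, 3 per group, came from 9 hearts, and p-values measure the spread between these libraries. Per the study's methods, poly-A RNA was read as paired ends, aligned to rat reference sequences, counted per gene and tested with DESeq2 in R 3.5.1. The submitters' processing notes name Bowtie 0.12.2 and the builds mm8 and mm9, and the deposited tables carry mouse Ensembl identifiers with no build named, so the authors' gene coordinates are not printed. Whether counting used strand is not given in the sources used here.

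The deposited signal in the sample columns is the read count of a gene over a size factor, which the authors set per library and anew for each table. Whole reads were recovered from 100% of the values, within 0.05 of a read. Levels per kilobase used the gene length in bases that the authors deposited. The authors' own means, fold changes and p-values were not used, except to see which libraries a mean covers, and 0 other columns of per-sample values were present. Both tables hold only genes that passed the authors' adjusted p limit.

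Each table was fitted on its own with limma 3.58.1 (R 4.3.3, trended prior variance) on log2(normalized count + 1), a scale that understates the change of low genes, without a filter, and adjusted by Benjamini-Hochberg over all its genes. A call needed an adjusted p under 0.05 and an absolute log2 fold change over 1. Errors after fold changes are SE and others are SD. Ratios were compared with two-sided exact permutation tests (scipy 1.17.1). Folds against a group without reads used a floor of 3 reads per library, and counting intervals are exact at 95% and cover counting error only. Alternatives tried were edgeR 4.0.16 and DESeq2 1.42.0 on recovered reads, quantile and median-ratio scaling, a replicate block, dropping each library, a minimum mean of 10, pseudocounts of 0.1 and 10, an adjusted p limit of 0.01 and no fold limit. On simulated data for the treatment table limma found 95.5% of 200 genes changed by 2 on the log2 scale among 4288, with 5 false calls, and in the sham table's simulation it found 99.5% of 200 among 2458, with 2 false calls.

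The members, the 4 pathway lists and the marker lists were chosen with earlier results of these data known. Named in full were members in both tables, the 10 highest and 10 lowest calls without overlap per table, and the adrenergic, adenosine, angiotensin, endothelin, apelin and adrenomedullin receptor families, which came to 44 genes in the treatment table and 38 in the other, of which 1 member, like 1 pathway gene, is not reported here by name or value. Markers of cardiomyocytes, endothelium, smooth muscle, fibroblasts, macrophages, neutrophils, lymphocytes and erythroid cells were counted. Fibroblast markers were higher for 4 of 5 listed genes in the treatment table and lower for 4 of 4 in the other, and 4 erythroid markers were higher in the second, all in the libraries headed Cal. Promoters came from RefSeq (GRCr8).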

Additional observations from a re-analysis of the deposited data

How the results depend on the processing

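Without a fold change limit all members passed, 74 in the treatment table and 49 in the sham table, against 45 and 20 with it. Leaving out each library in turn gave 41 to 47 calls in the first table and 18 to 22 in the second. The other alternatives stayed within 1.5 times of these counts, from 35 calls (pseudocount of 10) to 57 (median-ratio scaling) in the first and from 16 (pseudocount of 10) to 27 (median-ratio scaling) in the second. edgeR gave 46 and 20 calls, and DESeq2 gave the same counts. With the replicate block they were 45 and 20. The replicate numbers belong to different animals, and same-numbered libraries deviated together by correlations of only -0.14 to 0.11, so the numbers do not pair the libraries.

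In 3 member results the sign changed, all under quantile normalization: Adgrl2 against Model to 0.043, Adcy6 against Con to -0.18 and Pde4a against Con to -0.032. None of these passed the adjusted p limit then, and the cause was not tested. Of the single-member results under alternatives, 783 kept direction and side of the limit in the first table and 30 lost the limit, and in the second 513 kept both and 24 lost it. Depth limits the scarcest genes, since Gpr37l1, Gpr141, Gpr171, Gna14 and Gpr18 fell below a mean of 10, and only genes selected by the authors could be seen.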
